A study of Mus musculus with 56 samples.

Results

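Medullary thymic epithelial cells (mTECs) sorted from mouse mothers 3 days after parturition (D3, 3 samples) were compared with mTECs sorted on the day of birth (D0, 3 samples). These are 6 of the 56 RNA-sequencing samples of a time course of postpartum thymic regeneration, which also holds cortical thymic epithelial cells (cTECs). Single mTEC samples at D1 and D2 are shown as in-between values. Members were chosen by cell type and time point in the labels alone. All mothers at D0 to D3 were B6.SJL females (CD45.1) mated with BALB/cJ males, and their pups were taken away at birth, so no group nursed a litter. Each sample came from 1 mouse, and mTECs were sorted as EpCAM+CD45- cells that bound the lectin UEA1, whereas cTECs were the UEA1- cells. The ages of the mothers are not given in the sources used here. Of 50600 genes in the files, 17720 were tested, those with a mean of at least 0.5 FPKM (fragments scaled to transcript length and library size) over the 28 mTEC samples and a count in the 18 samples fitted.

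mTECs line the thymic medulla, where they attract maturing thymocytes with CCR7 ligands and display peptides of many tissues under the control of AIRE and FEZF2, so that self-reactive thymocytes can be removed. cTECs, by contrast, recruit and instruct early progenitors through CCL25 and the Notch ligand DLL4 and select thymocytes with peptides made by the thymoproteasome subunit PSMB11 and the proteases PRSS16 and cathepsin L. The transcription factor FOXN1 sustains both lineages and drives many of these cortical genes. The thymus shrinks in pregnancy and regrows after birth, and the comparison asks what had changed in mTECs by the first days of regrowth.

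The 6 samples carried mTEC genes. Keratin 5 (Krt5) stood at 2561 ± 523 FPKM at D0 and 2706 ± 819 at D3 (SD, n = 3 each, as for all values below). Ccl21a, a CCR7 ligand with near-identical copies that reads cannot always separate, stood at 12010 ± 2897 and 12013 ± 1424 FPKM. Epcam was at 186.6 ± 46.7 and 204.6 ± 55.2 FPKM. The sorted cTECs held some of the same RNA. At D3 the mTEC mean was 294.2% of the cTEC mean for Ccl21a, 145.5% for Krt5 and 591.2% for Aire.

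Depth and the number of genes seen differed between the libraries. The D0 libraries held 10273164, 14184244 and 15158355 counts and the D3 libraries 4879103, 11084886 and 12917039. Drawn down to 4879087 counts each, the D3 libraries of replicates 1 and 2 showed 11680 and 13173 genes with 3 or more counts, against 16538 in replicate 3 and 13777 to 16847 at D0. At full depth 34.5% and 25.9% of the tested genes had no count in D3 replicates 1 and 2, against 3.97% in replicate 3. Among the D0 samples, replicate 2 also lacked counts for 23% of them. The main genes below are therefore given with their value in each library, and list medians also without D3 replicates 1 and 2 where this matters. The fitted fold change of a gene at 0 in some libraries depends on the prior count and enters the medians of its lists.

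**Figure D1:**
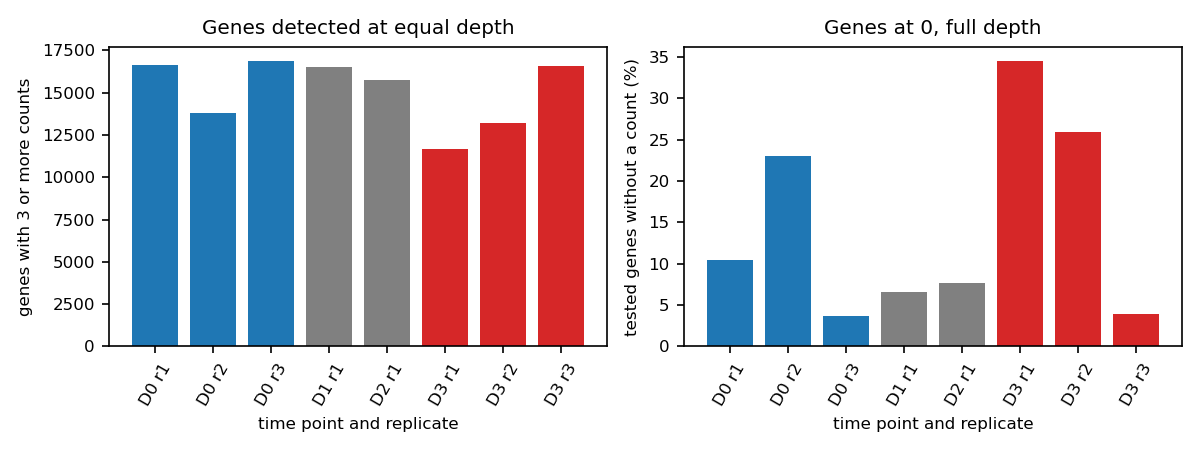
Left, genes with 3 or more counts in each mTEC library after all were drawn down to 4879087 counts. Right, percent of the 17720 tested genes without a count at full depth. Bars are single libraries, blue for D0, grey for D1 and D2, red for D3 (r, replicate). D3 replicates 1 and 2 show 11680 and 13173 genes, below the 16538 of replicate 3.

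No gene passed the test between D3 and D0. With limma-voom, 0 of 17720 genes (0%) reached a 2-fold difference at a Benjamini-Hochberg adjusted p of 0.01, and the smallest adjusted p was 0.263. Unadjusted p-values under 0.05 were found for 1506 genes (8.5%), of which 457 (2.58%) were higher and 1049 (5.92%) lower at D3. The edgeR quasi-likelihood test also called 0 genes, with 1071 at an unadjusted p under 0.05. DESeq2 called 33 genes, 10 higher and 23 lower (0.0564% and 0.13%). Of these 33, 17 were at 0 in a whole group, and 8 of the 17 had counts in 1 of the 6 libraries only. Counts of at least 10 in all 6 libraries were found for 9 of the 33. They were Ctsl, Crip3, Fn1, Tbata and Hnrnpdl on the higher side and Gpx3, Atf5, Ntng2 and Nectin2 on the lower side. Ntng2 and Nectin2 are named because DESeq2 called them. The differences described below are thus values, not calls of the main test, and the list medians are to be read beside the median of all tested genes, -0.12 on the log2 scale.

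Crip3, Ctsl, Fn1 and Tbata had the smallest p-values among the genes named on the higher side. Groups without overlap were a condition for naming genes by p-value on this side. Cathepsin L (Ctsl, chr13:64359337-64370890, GRCm38), a lysosomal protease that makes MHC class II peptides in cTECs, had 681.4, 689 and 886.4 FPKM at D0 and 1372, 1806 and 2090 at D3. The groups did not overlap, and the single D1 and D2 samples lay between them at 919.2 and 1072 FPKM. The log2 fold change was 1.2 ± 0.23 (SE), with a limma-voom adjusted p of 0.263. The DESeq2 adjusted p was 0.000316, and the range over all alternatives was 0.000316 to 0.949. Crip3, a LIM-domain gene first described in the thymus (chr17:46428926-46431776), had 151.2, 57.8 and 121.5 FPKM at D0 and 302.5, 341.6 and 316.5 at D3. Its D0 samples were spread widely and its D3 samples lay close together, with no overlap. The log2 fold change was 1.56 ± 0.29 and the limma-voom adjusted p 0.263. Tbata, a thymic epithelial gene known to restrain epithelial proliferation (chr10:61171954-61188841), had 618.1, 267.6 and 528.1 FPKM at D0 and 1408, 1281 and 1077 at D3. Its D1 and D2 samples stood at 684.8 and 928 FPKM, and its log2 fold change was 1.53 ± 0.31 with a limma-voom adjusted p of 0.334.

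Among FOXN1 and its named targets, 5 of 11 members had an unadjusted p under 0.05, all of them higher at D3, and 0 were called. The background share was 2.58%. Groups of 5 of the 11 did not overlap, all with D3 above D0, where 4.33% of all tested genes showed this. The median log2 fold change of the 11 was 0.44. The thymus-specific serine protease Prss16 (chr13:22002173-22009742) had 109, 118.5 and 120.4 FPKM at D0 and 313.1, 429.6 and 222.9 at D3, a log2 fold change of 1.55 ± 0.38. Ccl25, the chemokine that draws progenitors through CCR9, had 334.1, 290.4 and 317.3 FPKM at D0 and 766.3, 833.1 and 468.3 at D3 (1.03 ± 0.31). For both genes D3 replicate 3 was the lowest of its group and still above D0. The Notch ligand Dll4 had 6.72, 6.60 and 7.02 FPKM at D0 and 23.8, 22.6 and 12.1 at D3 (1.33 ± 0.40). The thymoproteasome subunit Psmb11 had 27.9, 11.9 and 24.2 FPKM at D0 and 64.4, 85.7 and 24.6 at D3 (1.29 ± 0.61), and here replicate 3 lay inside the D0 range. Foxn1 itself overlapped between groups, at 127.1, 84.8 and 86.6 FPKM at D0 and 165.4, 158.2 and 62.2 at D3, with a log2 fold change of 0.19 ± 0.36 and a limma-voom adjusted p of 0.932. The MHC class II genes of the list had values near 0. H2-Aa was at a log2 fold change of -0.09, H2-Eb1 at -0.14 and H2-Ab1 at -0.13.

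With D3 replicate 3 alone against D0, an alternative added after the data were seen in which the lone sample was assumed to vary like the other groups, the log2 fold change was 1.52 for Ctsl, 1.42 for Crip3, 1.36 for Tbata and 1.13 for Prss16. It was 0.88 for Dll4, 0.62 for Ccl25, 0.37 for Psmb11 and -0.60 for Foxn1. In this library, which showed the most genes of the D3 samples, Ctsl, Crip3, Tbata and Prss16 thus had fitted values above 1, whereas the difference was smaller for Ccl25 and Psmb11 and had the opposite sign for Foxn1. The median of the FOXN1 list was then 0.37, beside 0.21 for all tested genes.

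**Figure D2:**
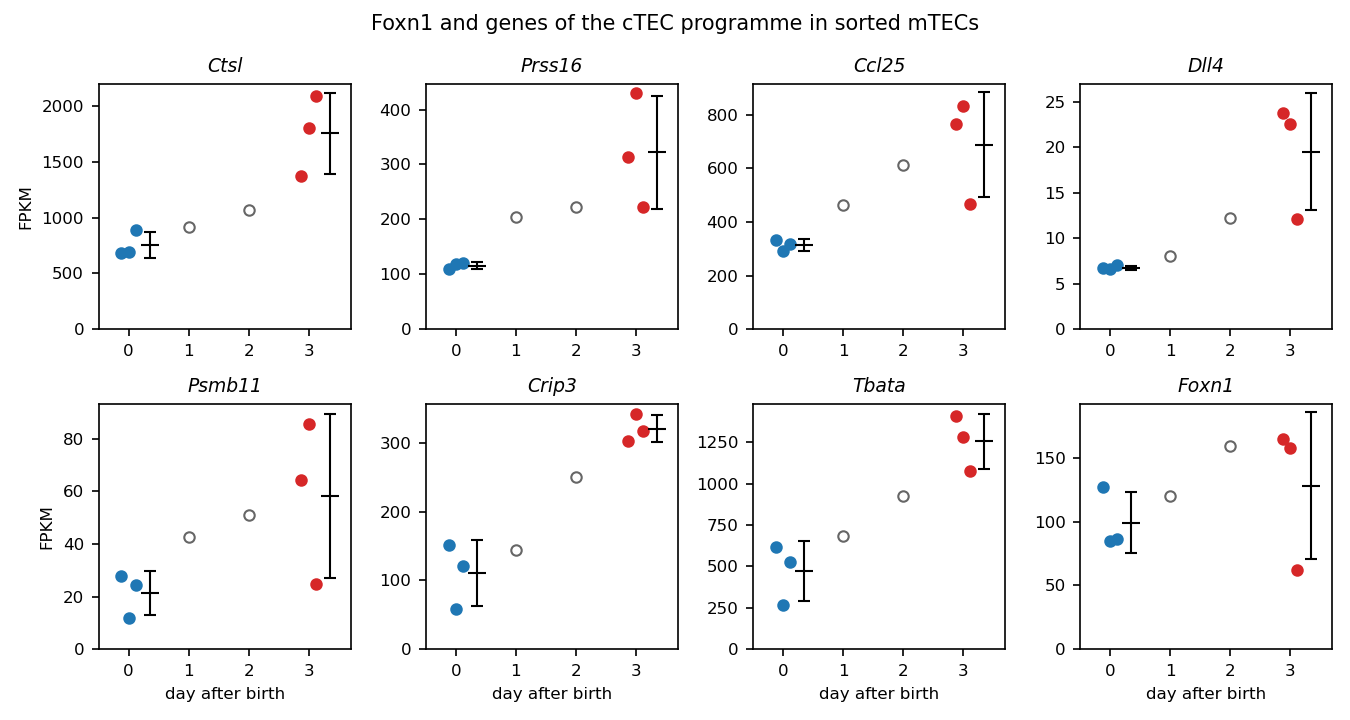
FPKM of Foxn1 and 7 genes of the cTEC programme in sorted mTECs against day after birth. Filled points are single mice (blue D0, red D3), open points the single D1 and D2 samples, and black bars the mean ± SD of 3 samples. Crip3, Ctsl, Tbata, Prss16, Ccl25 and Dll4 do not overlap between D0 and D3, while Psmb11 and Foxn1 do.

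The start regions of 4 of these genes are shown because the genes stood higher together and FOXN1 is known to bind a short core, GACGC. Of the 11 list members, 8 had an entry among RefSeq promoter windows, which run from 250 bases before to 50 after the start on GRCm38.p6. The core on either strand (GACGC or GCGTC, 5 bases, no overlap between matches required) was found in 3 of these 8, Ccl25, Psmb11 and Cxcl12, and in 27.2% of all 32851 windows. Capitals mark the matches in Ccl25 (chr8:4324960-4325259, plus strand) and Psmb11 (chr14:54625060-54625359, plus strand). Dll4 (chr2:119325534-119325833, plus strand) and Ctsl (chr13:64370471-64370770, minus strand) had none in the window. The Ctsl window follows a RefSeq start inside the gene and does not reach the GENCODE start at 64370890. It thus does not show the region before that start.
Ccl25: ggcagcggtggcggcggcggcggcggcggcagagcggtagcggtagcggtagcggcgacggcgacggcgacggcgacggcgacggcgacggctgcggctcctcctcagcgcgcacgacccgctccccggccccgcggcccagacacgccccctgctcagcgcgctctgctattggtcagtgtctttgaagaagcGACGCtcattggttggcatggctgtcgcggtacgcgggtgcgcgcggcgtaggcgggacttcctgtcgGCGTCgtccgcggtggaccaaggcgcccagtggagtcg
Psmb11: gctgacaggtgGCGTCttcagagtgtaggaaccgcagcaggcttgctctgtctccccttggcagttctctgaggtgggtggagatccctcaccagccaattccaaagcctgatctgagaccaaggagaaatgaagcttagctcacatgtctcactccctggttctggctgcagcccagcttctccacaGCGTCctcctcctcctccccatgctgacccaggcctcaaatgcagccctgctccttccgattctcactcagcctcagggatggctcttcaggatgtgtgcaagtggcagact
Dll4: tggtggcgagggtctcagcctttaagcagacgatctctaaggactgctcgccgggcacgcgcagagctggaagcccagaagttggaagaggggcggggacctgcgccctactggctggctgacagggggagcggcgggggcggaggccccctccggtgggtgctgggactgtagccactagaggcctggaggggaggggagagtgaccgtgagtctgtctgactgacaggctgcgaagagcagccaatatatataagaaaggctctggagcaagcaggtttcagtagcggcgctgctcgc
Ctsl: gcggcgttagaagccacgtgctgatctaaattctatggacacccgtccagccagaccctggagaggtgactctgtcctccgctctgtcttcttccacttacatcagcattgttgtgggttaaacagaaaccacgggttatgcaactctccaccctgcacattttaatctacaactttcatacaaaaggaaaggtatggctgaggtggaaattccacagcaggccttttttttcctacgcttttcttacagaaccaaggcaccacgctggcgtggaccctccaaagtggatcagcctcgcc
In this 300-base window 2 matches each were seen in Ccl25 and Psmb11. Of the 10 genes named on the higher side, 6 had a window and 4 of the 6 (Tnc, Hnrnpdl, Raver2 and Cobll1) held a match. On the lower side it was 0 of 6, and among all windows 27.2%. Both sets were picked by p-value in these data, and none of the 4 is on the FOXN1 list. The windows of Hnrnpdl, Cobll1 and, on the lower side, Gpx3 lie inside the gene and do not reach its GENCODE start. The matches are letters in a window and not measured sites.

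Markers used for cTECs moved with this result. The summed level of the 8 cTEC markers was 1796, 1410 and 1906 FPKM at D0, 2345 at D1, 2920 at D2 and 3978, 4490 and 3937 at D3. All 3 samples at D3 lay above all 3 at D0. The exact two-sided permutation test gave p = 0.1, the smallest that 3 against 3 allows. The cornified, mimetic, interferon, and parathyroid and thyroid lists described below gave the same p. Lists were chosen with earlier results of these data known, so this p cannot decide whether the list changed. Of the 8 markers, 6 had an unadjusted p under 0.05 and 6 did not overlap between groups, always with D3 higher, and the median log2 fold change was 1.25. Among all tested genes, 2.58% were higher with such a p and 4.33% had D3 above D0 without overlap. This list shares Prss16, Ctsl, Ccl25, Dll4 and Psmb11 with the FOXN1 targets. No marker of the list was at 0 in any of the 6 samples. Enpep and Ly75, surface markers of cTECs on this list, had log2 fold changes of -0.31 ± 0.56 and 0.78 ± 0.43. Enpep, which encodes Ly51, had 6.54, 11.8 and 6.76 FPKM at D0 and 13.2, 8.90 and 8.28 at D3, with overlap. Ly75 (DEC-205) had 11.8, 13.8 and 16.4 FPKM at D0 and 17.4, 22.6 and 33.6 at D3, without overlap. In sorted cTECs the sum of the 8 markers averaged 3329 FPKM at D0 and 9743 at D3. As a share of the cTEC mean, the mTEC mean of Prss16 was 22.7% at D0 and 17.6% at D3, that of Psmb11 26.1% and 23.6%, that of Enpep 23.2% and 28.5% and that of Ly75 26.1% and 28.8%. The share was 71.1% and 95.8% for Dll4, 54.8% and 69.1% for Ctsl, 78.3% and 52.1% for Tbata and 47.4% and 26.7% for Ccl25. Crip3, which is not in the list, stood at 108.6% and 67.9%. The part that cTECs inside the UEA1+ gate had in these values was not tested. In such bulk samples more cells of a type and more RNA per cell cannot be told apart.

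Other genes on the higher side encode matrix and cytoskeletal proteins. Fibronectin (Fn1, chr1:71585520-71653200) had 75.1, 124.6 and 71.9 FPKM at D0 and 201.4, 143.9 and 201.6 at D3, a log2 fold change of 1.07 ± 0.21. Tenascin C (Tnc, chr4:63959785-64047015), another matrix glycoprotein, had 148.7, 211.4 and 228.1 FPKM at D0 and 298.7, 358.9 and 502.2 at D3 (0.94 ± 0.20). Neither gene overlapped between groups, and D1 and D2 lay within the D0 range, at 78.6 and 102.8 FPKM for Fn1 and 187.8 and 209.3 for Tnc. Cortactin (Cttn), an actin-branching regulator, had 34.2, 30.5 and 46.7 FPKM at D0 and 102.3, 68.8 and 65.1 at D3. Its log2 fold change on counts was 0.71 ± 0.18, less than its FPKM show. FPKM also depend on the transcript length that RSEM estimates. The RNA-binding gene Hnrnpdl had 34.6, 31.8 and 53.5 FPKM at D0 and 87, 69.2 and 102.8 at D3. Raver2, another RNA-binding gene, had 10.4, 11.5 and 15 FPKM at D0 and 37.1, 20.2 and 22.6 at D3. Neither overlapped between groups. Cobll1, an actin-binding gene, had 7.87, 0.88 and 11.8 FPKM at D0 and 26.4, 22.4 and 17.1 at D3, with D0 replicate 2 far below the others. The limma-voom adjusted p of these 6 genes lay between 0.334 and 0.363. Of the 10 genes named on this side, the D1 sample lay between the group means for 8 and the D2 sample for 10, and D2 was nearer to D3 for 4.

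The mature mTEC programme showed no common direction. Of 16 genes for AIRE, MHC class II and costimulation, 0 had an unadjusted p under 0.05, 5 were higher and 11 lower at D3, and the median log2 fold change was -0.16. Of all tested genes, 8.5% had such a p, 7553 were higher and 10167 lower. Aire, which drives promiscuous gene expression, had 55.9, 91.3 and 38.8 FPKM at D0 and 20, 51.3 and 68.8 at D3, so the groups overlapped (log2 fold change -0.32 ± 0.65, limma-voom adjusted p of 0.935). Fezf2, the second regulator of tissue antigens, had 130.4, 126 and 108.5 FPKM at D0 and 181.8, 181.3 and 119.4 at D3, also with overlap. The costimulatory ligand Cd80 stood at 8.06, 10.1 and 9.99 FPKM at D0 and 7.98, 4.57 and 6.99 at D3, the lowest D0 value next to the highest D3 value.

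Structural and chemokine genes of the medulla showed few differences. On the higher side, where 2.58% of all tested genes had an unadjusted p under 0.05, 1 of 12 basal and junctional genes did. This was Trp63, the p63 factor of epithelial progenitors, with 67.6, 85.1 and 88.4 FPKM at D0 and 126.2, 103 and 150.1 at D3 and no overlap (0.54 ± 0.20, limma-voom adjusted p of 0.491). Of 13 genes on the medullary chemokine list, 2 had an unadjusted p under 0.05, both higher. They were Ccl25, also counted among the cTEC markers and FOXN1 targets, and the CCR7 ligand Ccl19. Ccl19 had 94.7, 82.9 and 112.9 FPKM at D0 and 245.8, 176.5 and 129.4 at D3 (0.68 ± 0.31). The median log2 fold changes of these lists were -0.22 and 0.00. The 12 genes of the noncanonical NF-kB pathway, which mTEC growth depends on, had 0 members at an unadjusted p under 0.05 and a median of -0.10.

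On the lower side, many genes were at 0 in the libraries that showed few genes. Of the 1049 genes at an unadjusted p under 0.05, 603 (57.5%) had no count in 2 or 3 of the D3 libraries. Of these, 570 were at 0 in replicates 1 and 2 but not in replicate 3. Among all 17720 tested genes, 7063 had no count in at least 1 D3 library. Of the 10 genes named here, all but Gpx3 were at 0 in D3 replicate 2, and all but Gpx3 and Gm14296 in replicate 1 as well. Groups without overlap were a condition for naming these 10, which 5.02% of the tested genes met with D3 below D0. Dcpp3, a salivary protein of a family of near-identical copies, had 4.78, 14.5 and 5.58 FPKM at D0 and was at 0 in all 3 D3 libraries. The water channel Aqp5 had 6.90, 12 and 6.97 FPKM at D0 and 0, 0 and 2.13 at D3. Cd177, a neutrophil surface gene, had 9.36, 24.6 and 10.3 FPKM at D0 and 0, 0 and 3.77 at D3. The others were Gsdma2, Klk14, Gm14296, Ces2c, Cxcr5 and Ttc36, with 2.12 to 25.1 FPKM at D0 and at most 3.93 at D3. D3 replicate 3 was the highest D3 sample for each of the 8 that had a D3 count. The part of the low gene number in this pattern was not tested.

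Lists of antigen genes showed the same form. Of 16 cornified keratinocyte-like genes, which mark late mTECs, 6 had an unadjusted p under 0.05, all lower at D3, against 5.92% of all tested genes, and the median log2 fold change was -1.30. Of the 16, 9 had no count in at least 1 D3 library, as did 7063 of all 17720 tested genes. Their summed level was 310.3, 396.7 and 245.9 FPKM at D0 and 221, 168.5 and 204.3 at D3, where the groups did not overlap. For the 7 members with at least 10 counts in all 6 libraries the median was -0.64. Loricrin (Lor), a cornified envelope protein, had 2.47, 7.49 and 1.83 FPKM at D0 and 0, 0 and 0.41 at D3. Of 14 tissue-restricted antigens in common use, 3 had an unadjusted p under 0.05, all lower, and the median was -1.15. Thyroglobulin (Tg) had 3.62, 29.4 and 3.71 FPKM at D0 and 0, 1.36 and 2.17 at D3. The 5 milk protein genes tested included 1 at an unadjusted p under 0.05, the casein gene Csn1s2a, with 1.92, 20.4 and 4.68 FPKM at D0 and 0, 0 and 2.44 at D3. In each of these examples D0 replicate 2 was the highest sample. With D3 replicate 3 alone, the median was -0.84 for the cornified genes, -0.81 for the antigens in common use and -1.05 for the milk protein genes, where that of all tested genes was 0.21.

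Regulators and products of mimetic mTECs, which copy cell types of other tissues, had 3 of 14 members at an unadjusted p under 0.05, all lower, against 5.92% of all tested genes, with a median of -0.70. Of these 3, Ckm and Foxa2 were at 0 in D3 replicates 1 and 2, and the list median was -0.52 without those libraries. Chromogranin A (Chga, chr12:102554969-102565028), a secretory granule protein of neuroendocrine cells, was counted in every library. It had 271.9, 373.3 and 70.8 FPKM at D0, 29 at D1, 53.7 at D2 and 34.3, 17.1 and 31.8 at D3. The groups did not overlap, but D0 replicate 3 was far below the other D0 samples, and the log2 fold change was -2.94 ± 1.22 with a limma-voom adjusted p of 0.536. The summed level of 15 mimetic genes was 311.1 to 633.1 FPKM at D0 and 213.4 to 294.6 at D3. Chga is 1 of these 15 and made up most of the gap between the means. Its mean was 238.7 FPKM in a summed mean of 484.5 at D0, and 27.7 in 258.2 at D3. In sorted cTECs Chga averaged 1102 ± 577.3 FPKM at D0 and 137.2 ± 89.5 at D3, above mTECs at both times. Parathyroid and thyroid markers, from glands that can lie in or beside the thymus, summed to 84.7 to 381.5 FPKM at D0 and 30.6 to 76.4 at D3, and moved in the same direction as Chga. Their part in the Chga values was not tested. Of 15 tuft cell genes, 2 had an unadjusted p under 0.05, both lower, and the median was -0.32, or -0.11 without D3 replicates 1 and 2. Sh2d6 was at 0 in D3 replicate 1, and the other was Trpm5, the cation channel of tuft cells, with 24.2, 21.3 and 15 FPKM at D0 and 12.5, 13.3 and 13.7 at D3.

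Several abundant genes were lower at D3 in all libraries. Gpx3, a secreted glutathione peroxidase (chr11:54902453-54910377), had 1482, 1459 and 1698 FPKM at D0, 1045 at D1, 806.6 at D2 and 563.8, 746.9 and 777.5 at D3. The groups did not overlap and both in-between samples lay between them. The log2 fold change was -1.18 ± 0.26, with an adjusted p of 0.334 by limma-voom and of 0.00268 by DESeq2 (0.00268 to 0.998 over all alternatives). It was -0.95 with D3 replicate 3 alone. The transcription factor Atf5, a stress-response gene named after its values were seen, had 84.3, 55.5 and 58.1 FPKM at D0 and 30.5, 29.8 and 30.6 at D3 (-1.11 ± 0.29). The 3 D3 samples were nearly equal.

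Acute-phase genes, innate defence products that epithelia also make, had 3 of 12 members at an unadjusted p under 0.05, all lower, against 5.92% of all tested genes, and a median log2 fold change of -0.77 (-0.41 without D3 replicates 1 and 2). Lipocalin 2 (Lcn2), which binds bacterial siderophores, had 84.8, 64.4 and 60.3 FPKM at D0 and 31.4, 30.2 and 28.2 at D3 (-1.24 ± 0.39). The protease inhibitor Serpina3n had 39.9, 73.4 and 35.2 FPKM at D0 and 20.7, 11.8 and 26.6 at D3 (-1.37 ± 0.50). Neither overlapped between groups. Complement C3 had 732.3, 786.6 and 1086 FPKM at D0 and 569, 667 and 805.3 at D3, with overlap (-0.56 ± 0.19). At D-2, before birth, Serpina3n had stood at 121.2 ± 35.5 FPKM and Lcn2 at 72.7 ± 23.5, and at D6 they stood at 18.4 ± 10.7 and 17.9 ± 2.64.

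Of 16 interferon-stimulated genes, 13 had a lower and 3 a higher fitted value at D3, with a median of -0.35 (-0.30 without D3 replicates 1 and 2). An unadjusted p under 0.05 was found for 4 on the lower and 1 on the higher side, against 5.92% and 2.58% of all tested genes. Their summed level was 2074, 2092 and 2164 FPKM at D0, 2125 at D1, 2026 at D2 and 1935, 2007 and 1590 at D3. The groups did not overlap. The exact two-sided permutation test gave p = 0.1, the smallest that 3 against 3 allows. It cannot decide here either, since the list was chosen with earlier results of these data known. Ifit1, which binds viral RNA, had 198, 179.3 and 130.7 FPKM at D0 and 70.3, 114.6 and 72.6 at D3 (-1.0 ± 0.28), and its D1 and D2 samples, at 184.6 and 200.7, were still at the D0 level. Its relative Ifit2 had 12.6, 10.3 and 15.3 FPKM at D0 and 19.4, 19.9 and 21.5 at D3 (0.78 ± 0.33). Neither gene overlapped between groups, and their directions were opposite. In MHC class I processing, 2 of 13 genes had an unadjusted p under 0.05, both parts of the peptide-loading complex and both lower, against 5.92% of all tested genes. Tapasin (Tapbp) had 216.2, 287.1 and 171.1 FPKM at D0 and 131.1, 155.4 and 111.2 at D3 (-0.59 ± 0.19), and the peptide transporter Tap1 had 125.9, 112.4 and 108.1 at D0 and 98.5, 75.8 and 94.1 at D3 (-0.44 ± 0.19). The list median was -0.18.

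**Figure D3:**
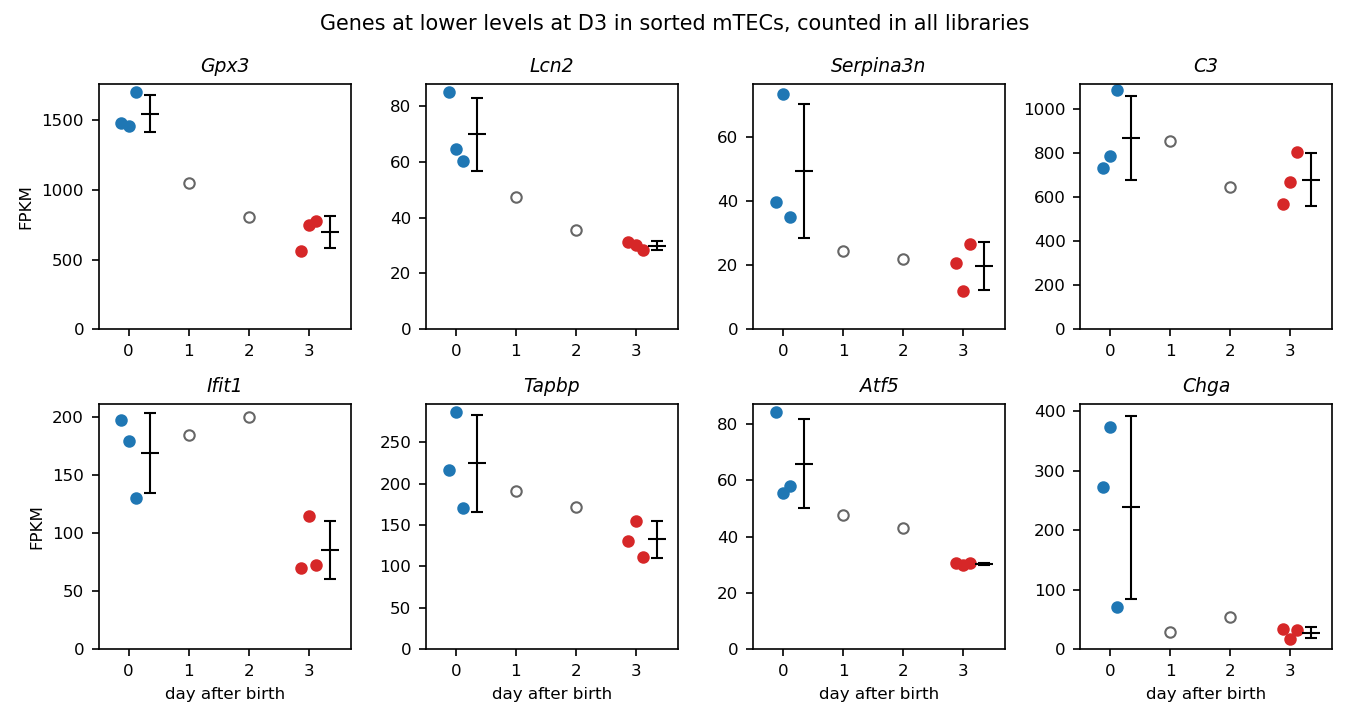
FPKM of 8 genes with lower means at D3 in sorted mTECs against day after birth, drawn as in the plot of the cTEC programme. Every gene has counts in all libraries. Gpx3, Lcn2 and Atf5 do not overlap between D0 and D3 and their D1 and D2 samples lie in between, while Ifit1 is at the D0 level until D2 and C3 overlaps.

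Over all members, the median was lower at D3 for mitosis genes and higher for DNA replication genes. Of 22 genes of mitosis, 3 had an unadjusted p under 0.05, all lower, against 5.92% of all tested genes. All 3 were at 0 in D3 replicates 1 and 2. The median was -0.48 over the 22 and 0.39 over the 8 with at least 10 counts in all 6 libraries. For all tested genes with such counts it was -0.02. Cyclin A2 (Ccna2) had 2.97, 7.61 and 2.44 FPKM at D0 and 0, 0 and 3.06 at D3. Of 20 DNA replication genes, 0 had an unadjusted p under 0.05 by limma-voom, 15 were higher and 5 lower, and the median was 0.27. It was 0.24 over the 14 with at least 10 counts in all 6 libraries. Of all tested genes, 7553 were higher and 10167 lower. The summed levels of mitosis and of DNA replication genes overlapped between groups. Thymidylate synthase (Tyms) had 3.46, 22.8 and 5.75 FPKM at D0 and 24.6, 59.7 and 9.38 at D3.

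Immediate-early genes, which also answer tissue dissociation, were mostly higher at D3. Of 16, 15 had a positive log2 fold change, as did 7553 of all 17720 tested genes. The median was 0.48, and 1 had an unadjusted p under 0.05, against 2.58% of all tested genes on the higher side. That gene was the heat shock gene Hspa1a, which shares near-identical sequence with Hspa1b, with 305.6, 201.6 and 250.6 FPKM at D0 and 308.6, 316.7 and 711.9 at D3. The summed level was 10474, 7390 and 8192 FPKM at D0 and 10402, 10656 and 16659 at D3, with overlap and with replicate 3 highest. Of 12 steroid-induced genes 1 had an unadjusted p under 0.05, the hormone-responsive factor Klf9, with 67.7, 71.8 and 46.9 FPKM at D0 and 66.8, 26.1 and 43.4 at D3. Of 7 steroid receptors 1 did, the mineralocorticoid receptor Nr3c2, with 4.26, 0 and 2.80 FPKM at D0 and 3.57, 11.3 and 6.68 at D3. The unfolded protein response list had 1 of 15 at an unadjusted p under 0.05 (Creld2, lower, median -0.38) and cholesterol synthesis 2 of 18 (Insig1 and Fdps, lower, median -0.32). Such a p on the lower side, as for Klf9, Creld2, Insig1 and Fdps, was found for 5.92% of all tested genes. On the higher side, as for Nr3c2, it was 2.58%.

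**Figure D4:**
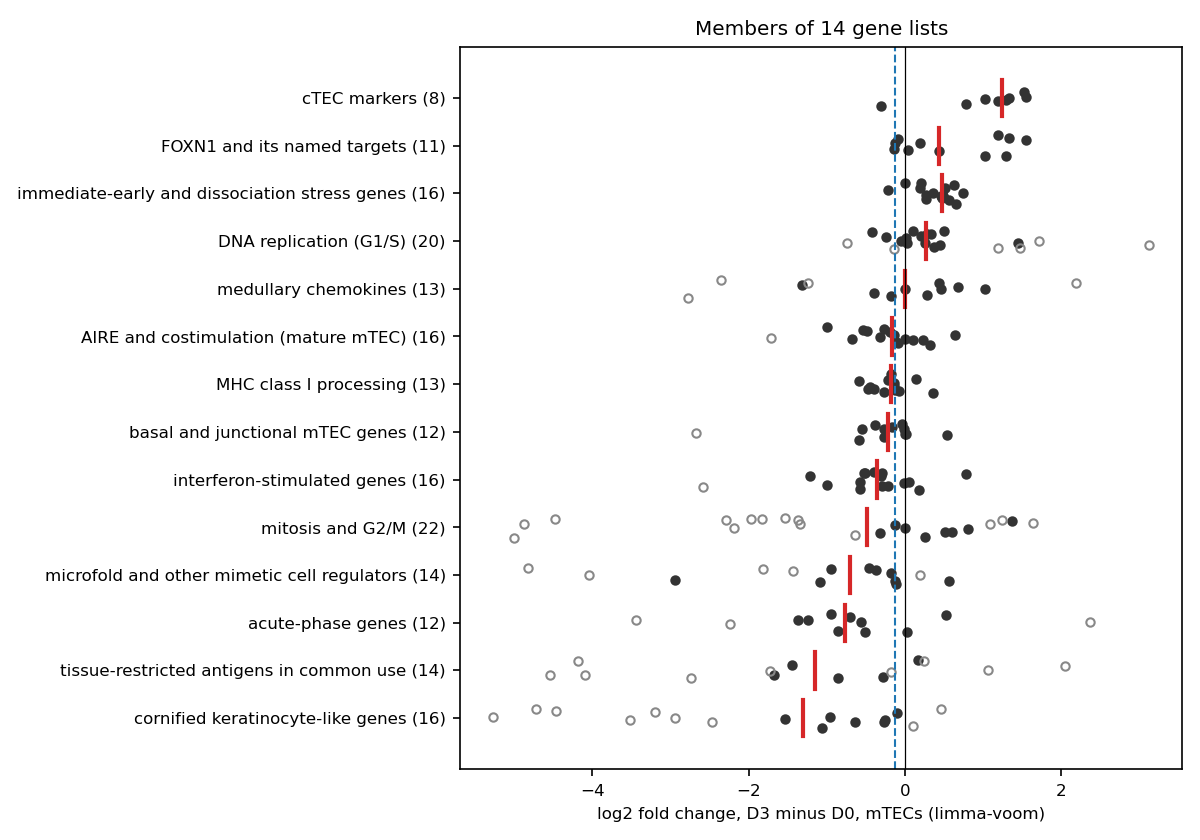
Log2 fold change (D3 minus D0, limma-voom) of the members of 14 gene lists in mTECs, with the number tested in brackets. Filled points had counts in all 6 libraries, open points were at 0 in at least 1, red bars are list medians and the dashed line is the median of all tested genes (-0.12). The cTEC markers (1.25) and FOXN1 targets (0.44) lie to the right, and most members beyond -2 are open points.

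Markers of other cells overlapped between the groups in their summed levels. The summed level of 20 thymocyte markers ranged from 45.4 to 92.6 FPKM at D0 and from 34.2 to 154.6 at D3. B cell and plasma cell markers summed to 26.8 to 72.5 and 7.97 to 41.7 FPKM, macrophage and dendritic cell markers to 60.7 to 102.3 and 43.1 to 81.4, and endothelial markers to 3.22 to 10.8 and 2.69 to 10.1. Fibroblast and pericyte markers summed to 199.9 to 231.3 FPKM at D0 and 161.2 to 235.1 at D3, and erythroid markers to 9.32 to 79.1 and 0 to 19.6. The unadjusted p was under 0.05 for 1 of 19 thymocyte, 3 of 5 B cell, 1 of 10 macrophage, 0 of 8 fibroblast, 1 of 4 endothelial and 2 of 5 erythroid genes tested, all lower at D3, against 5.92% of all tested genes. Of these 8 genes, 7 were at 0 in 2 of the D3 libraries, and the exception was Ighm. Without D3 replicates 1 and 2 the medians of the 6 lists were 0.57, -0.97, -0.27, 0.24, 0.83 and -2.04, in this order.

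The same interval was compared with cTECs in a fit of 36 samples from both populations. In cTECs, 10 of 18368 genes were called by limma-voom (0.0544%), all higher at D3, among them Crip3, Tbata, Prss16 and Ccl25. For the difference between the mTEC and the cTEC change, limma-voom called 0 of 18368 genes (0%), with a smallest adjusted p of 0.16 and 2219 genes at an unadjusted p under 0.05 (12.1%), and edgeR called 0 with 991. Of the 2219, 1555 were higher in mTECs, but without cTEC D3 replicate 2 there were 1109, 344 of them higher. That cTEC library showed 10079 genes with 3 or more counts, against 16594 and 14681 in the other cTEC samples at D3. In this fit the mTEC log2 fold change of Crip3 was 1.60 and that of cTECs 1.89, a difference of -0.29 (95% interval -1.09 to 0.51). For Prss16 the difference was -0.25 (-1.19 to 0.68), for Tbata -0.31 (-1.18 to 0.56), for Ctsl 0.38 (-0.19 to 0.96) and for Ccl25 -0.83 (-1.81 to 0.15). For Gpx3 it was -0.13 (-0.99 to 0.72), with cTEC means of 626.2 ± 117 FPKM at D0 and 333 ± 89.2 at D3. These intervals are wide enough to hold differences of sizeable folds, so the changes cannot be called alike.

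Of the 5 genes with the smallest p for this difference, Gm14296, Dus2, Rasgrp1 and Rfesd were near or at 0 in mTEC D3 replicates 1 and 2. The fifth was Gab1, an adaptor of receptor tyrosine kinases, which had counts in all libraries. It had 23.2, 40.8 and 32.6 FPKM at D0 and 39.9, 43.3 and 39.2 at D3 in mTECs, and 28.8, 29.7 and 31.1 at D0 and 21.4, 17.3 and 25.1 at D3 in cTECs. The difference between the log2 fold changes was 1.19 ± 0.25, with a limma-voom adjusted p of 0.16. Of the genes named on the higher side in mTECs, Cttn, Cobll1 and Hnrnpdl had cTEC log2 fold changes of -0.29 ± 0.18, -0.13 ± 0.39 and -0.39 ± 0.31, with limma-voom adjusted p of 0.446, 0.912 and 0.552, so no direction in cTECs was shown. The differences between mTECs and cTECs were 1.03 (0.53 to 1.54), 2.47 (1.17 to 3.78) and 1.47 (0.67 to 2.27), with limma-voom adjusted p of 0.213, 0.269 and 0.269. These genes were named by their p-values in the same mTEC samples and then picked from that side. The unadjusted intervals therefore cannot decide whether the populations differed.

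**Figure D5:**
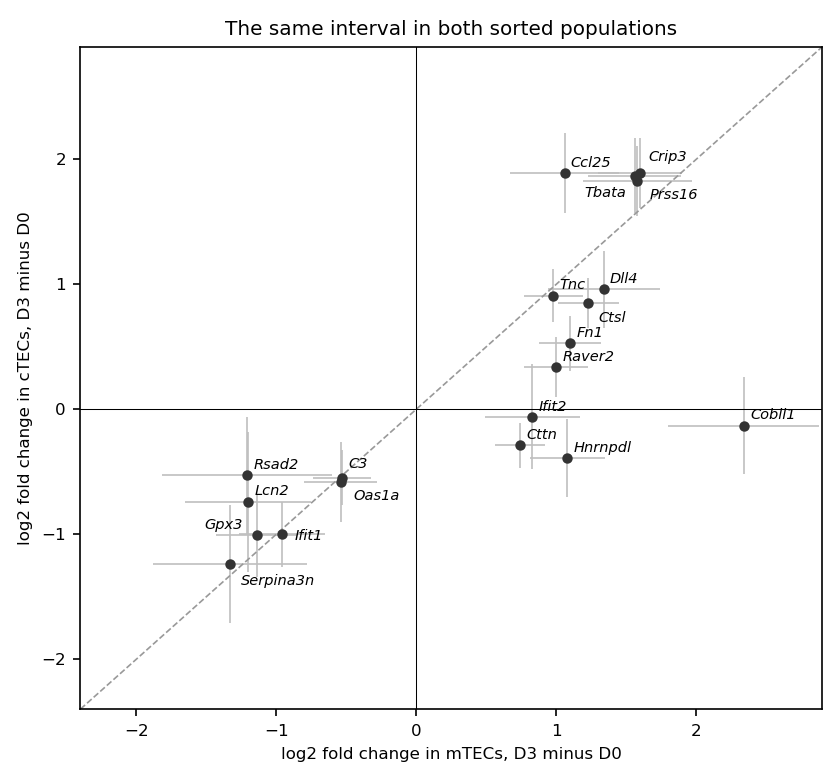
Log2 fold change from D0 to D3 in mTECs (x axis) and cTECs (y axis) for 20 genes with counts in all 6 mTEC libraries, from the fit of 36 samples. Bars are standard errors and the dashed line marks equal change. Crip3, Tbata and Prss16 lie beside the line at the upper right, while Cttn, Hnrnpdl and Cobll1 lie farther below the line, right of zero in mTECs and near zero in cTECs.

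The later mTEC samples place these levels in the time course. Prss16 averaged 60.4 ± 25.4 FPKM before birth (D-2) and 116 ± 6.11 on the day of birth, against 321.9 ± 103.6 at D3. It then stood at 414.5 ± 194 FPKM at D6 and 100.8 ± 68.0 at D12. Crip3 was likewise highest at D3 and D6, with 320.2 ± 19.8 and 352.4 ± 68.9 FPKM, and lower at D-2 (129.4 ± 30.0), D0 (110.2 ± 47.7) and D12 (167.2 ± 48.4). Gpx3 was lowest at these times, with 696.1 ± 115.6 FPKM at D3 and 649.1 ± 111.3 at D6, against 1385 ± 491.4 at D-2, 1547 ± 132.1 at D0 and 912.3 ± 91.4 at D12. For these 3 genes the D3 and D6 means differed by less than the larger SD, and non-pregnant controls stood at 150.8 ± 20.1, 172.2 ± 24.4 and 1036 ± 337.5 FPKM.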

How the data were processed

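Poly-A RNA of sorted cells was sequenced from stranded libraries. Per the labels, the authors used bcl2fastq 2.20, Trimmomatic 0.35, STAR 2.5.1b and RSEM 1.2.28 on GRCm38, and deposited per sample the RSEM expected count and FPKM of 50600 genes. Gene positions were taken from GENCODE M21. Expected counts were rounded, scaled with TMM and fitted with limma-voom (limma 3.58.1, edgeR 4.0.16) over the 18 mTEC samples of the 6 time points with 3 samples each. A call needed a 2-fold difference and an adjusted p of 0.01. Levels are FPKM. The difference from cTECs was an interaction in 36 samples, with intervals of 1.96 SE. DESeq2 1.42.0 and other settings were alternatives. The fits were also run on simulated data, where limma-voom missed most of the 2-fold and of the 4-fold changes put in. Most DESeq2 calls there were false when the changes were 2-fold. A count of 0 genes called by limma-voom thus does not show that no gene changed. mTEC libraries held 4561208 to 108547384 counts. All 56 samples differed in their values. The samples and gene lists were chosen with earlier results of these data known. Named genes were, in each direction, the 10 with the smallest p among those without overlap and with a mean of at least 5 FPKM in the higher group, since none was called; further the smallest-p members of each list, defining markers and the 5 smallest p for the interaction. Deviations of D0 and D3 samples with the same replicate label correlated over genes with r of -0.0332, 0.0427 and 0.222 (the last pair carries 4 and 3 in its titles), so the numbers were not taken as pairs.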

Additional observations from a re-analysis of the deposited data

How the results depend on the processing

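The count of 0 genes called between D3 and D0 held in every alternative run except DESeq2 (33 genes); the cause was not tested. Leaving out each of the 6 samples in turn gave 0 calls by limma-voom each time, but 0 to 129 at an adjusted p of 0.05, the 129 without D3 replicate 3, and 935 to 2209 genes at an unadjusted p under 0.05. The share of higher genes at an unadjusted p under 0.05 depended on the libraries that showed few genes: 457 of 1506 with all samples, 103 of 935 without D0 replicate 2 and 924 of 1102 without D3 replicates 1 and 2. It was 371 of 682 among genes with a mean of at least 5 FPKM. The last 2 settings were added after the data were seen. The fit of 36 samples, also added then, had 0 calls and 20 genes at an adjusted p of 0.05. With the replicate number as a block, 0 genes were called between D3 and D0 (1264 at an unadjusted p under 0.05 by limma-voom). For the difference from cTECs, samples with the same time point and title number were instead treated as correlated, as if from 1 mouse. This gave 0 calls and 2321 genes at an unadjusted p under 0.05. That such samples shared a mouse was assumed, and the main fit did not use it. For the difference between mTECs and cTECs, leaving out single samples gave 0 to 37 calls and 1109 to 2829 genes at an unadjusted p under 0.05, with 37 without mTEC D3 replicate 3 and 3 without cTEC D3 replicate 1.

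Of 1896 values of named genes over 20 alternatives, 10 had the opposite sign. Aire was at 0.08 with sample quality weights, at -0.72 to 0.05 when 1 sample was left out (above 0 without D0 replicate 2 or D3 replicate 1) and at 0.36 without D3 replicates 1 and 2. Foxn1 was at -0.09 to 0.70 when 1 sample was left out (below 0 without D3 replicate 1 or 2) and at -0.60 without both. Without both, Dntt was at 0.36, Insig1 at 0.08 and Rfesd at 0.16. The median of all tested genes was 0.21 without D3 replicates 1 and 2, against -0.12. At equal depth D3 replicates 1 and 2 still showed fewer genes than replicate 3, and the part of depth in their zeros was not tested.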
